A study of Drosophila melanogaster with 3 samples.

Results

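Doc3 is a T-box transcription factor, and the regions described here are the places where it was recovered just upstream of protein-coding genes with no coding start on the other strand close by, at promoters that lack the best known sequence element of fly housekeeping promoters. That element is the DNA replication-related element (DRE), an 8-base palindrome read by the factor DREF. The regions were chosen by position and sequence alone: each is a peak of the conservative list whose summit lies upstream of the nearest protein-coding transcription start site (TSS), with coding starts of 1 strand only within 500 bp and no exact DRE centred within 250 bp. Of 2793 conservative peaks on the major chromosome arms and chromosome 4, 620 met the rule. After overlapping peaks were merged into 2270 regions, 538 regions had one of them as their strongest peak, and those 538 are the units counted below. The remaining 82 peaks were shoulders of a stronger peak, which belonged to the same class in 45 cases and to the class with summits downstream of the start in 23. A noncoding start on the other strand lay within 500 bp of 32 of the 538 summits (5.95%), so unidirectional here refers to coding starts. In all, 566 of 13945 coding genes (4.06%) were the nearest gene of such a peak.

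The embryos were whole Drosophila melanogaster of 0 to 24 hours from the strain Doc3-GFP, in which an insertion gives a fusion of Doc3 with enhanced green fluorescent protein (Doc3-eGFP). The chromatin was sheared by sonication and precipitated in 3 biological replicates that form 1 group. The labels describe the antibody as anti-GFP in one field and give Doc3 as the antibody in another, and the files do not settle which applies. The labels name a possible control experiment, which was not analysed here, so no value below is set beside a background measured the same way. Whole embryos pool all cell types and stages, and a peak in few cells cannot be told apart from a weak one in many. The labels number the samples as biological replicates without saying how the embryos were collected. The tests below compare regions, so their p-values cover the counting of regions and not the variation between embryos.

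Fly core promoters carry different sets of short elements. Genes that most cells use often hold the DRE, Motif 1 (read by the factor M1BP), Motif 6, Motif 7 or the E-box CAGCTG, and many are closely packed on the chromosome. Developmentally regulated genes more often have an Initiator at the start, a TATA box, or runs of GAGAG that the GAGA factor Trl reads. T-box proteins recognise sequences built on the core GGTGTGA. The peaks of divergent promoters, of promoters with a DRE and of summits downstream of the start are the classes most like the ones described here and are used for comparison.

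The sequences at 8 summits show the elements on which the results turn. Each runs 5′ to 3′ along the gene from 50 bp before the summit to 50 bp after it, or to the last base before the start. Capitals mark TATCGAT, which is the DRE without its last base, and in addition the element given with each name. The coordinates are those of dm6, and the genome sequence is that of the RefSeq assembly of the same release 6. mtSSB (3R:16205251-16205343, minus strand), with 2 copies of this shortened DRE side by side, had the highest signal of all. The windows of kis (2L:250883-250983, minus strand) and bcn92 (X:2149701-2149801, minus strand) hold Motif 7, those of Top1 (X:15319358-15319458, plus strand) and CG42271 (X:14234188-14234288, minus strand) Motif 1, and that of Snx27 (X:5738057-5738157, minus strand) the E-box. The window of mnb (X:17887270-17887370, minus strand) holds a GAGA run, and that of rut (X:14826181-14826281, minus strand) the T-box core.
mtSSB, near-DRE: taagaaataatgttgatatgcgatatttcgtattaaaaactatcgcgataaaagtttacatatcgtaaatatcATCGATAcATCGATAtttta
kis, Motif 7: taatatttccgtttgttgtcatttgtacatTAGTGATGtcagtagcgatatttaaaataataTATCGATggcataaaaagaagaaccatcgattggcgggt
bcn92, Motif 7: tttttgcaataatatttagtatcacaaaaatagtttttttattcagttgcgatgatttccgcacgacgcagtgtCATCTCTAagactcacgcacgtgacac
Top1, Motif 1: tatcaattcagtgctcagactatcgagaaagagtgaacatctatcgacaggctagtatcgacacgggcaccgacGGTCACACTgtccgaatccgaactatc
CG42271, Motif 1: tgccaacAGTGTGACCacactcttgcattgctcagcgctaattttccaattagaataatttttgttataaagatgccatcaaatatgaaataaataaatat
Snx27, E-box: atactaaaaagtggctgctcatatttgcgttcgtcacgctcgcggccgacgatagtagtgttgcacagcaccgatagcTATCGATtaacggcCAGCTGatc
mnb, GAGA: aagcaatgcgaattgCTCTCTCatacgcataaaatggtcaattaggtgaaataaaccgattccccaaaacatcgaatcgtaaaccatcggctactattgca
rut, T-box: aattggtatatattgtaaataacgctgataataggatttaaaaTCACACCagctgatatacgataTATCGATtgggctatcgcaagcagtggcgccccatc

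The summits lay close to the start. The median distance was 77.5 bp upstream of the nearest coding TSS, with quartiles of 40 and 145 bp over the 620 peaks, and 178 of them (28.7%) lay 51 to 100 bp away. Overlap with the replicates' own lists was highest near the start: 66.7% of the 78 regions within 25 bp were overlapped in all 3 replicates, 58.2% of the 165 regions at 51 to 100 bp and 21.7% of the 23 regions beyond 300 bp. The authors' signal value, which is on the scale of their list and is used here only to rank and describe, had a median of 229 within 25 bp and 127 beyond 300 bp. Just inside the rule, unc-119 and Tak1 had summits 1 bp upstream of the start, and Larp4B had one 500 bp upstream. Just outside it, CG3402, Ddr and nsl1 had summits at the start itself, and CG13380 had one at 504 bp. On the DRE side of the rule, CG9175 had its nearest exact copy 259.5 bp from the summit, whereas CG9776 was left out with a copy at 237.5 bp. Of the 538 summits, 500 (92.9%, Wilson 95% interval 90.5 to 94.8%) lay in no annotated exon part of a coding gene, 26 in a 5′ UTR, 9 in a 3′ UTR and 3 in coding sequence.

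**Figure D1:**
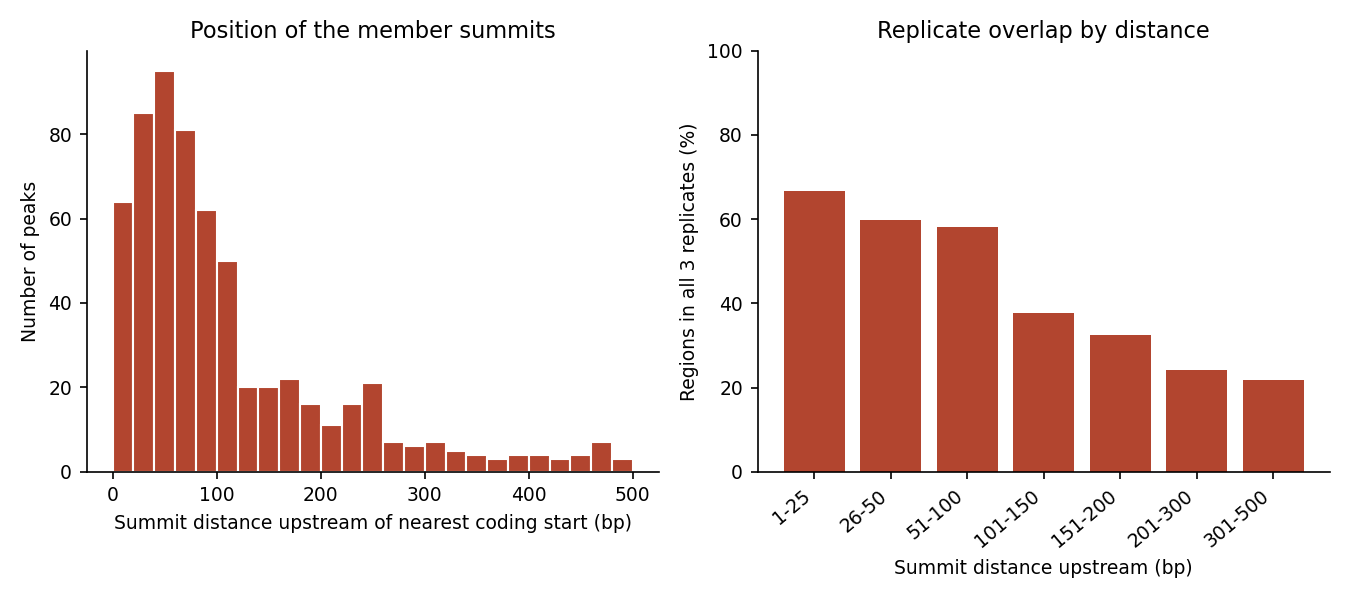
Position and replicate overlap of the peaks. Left, number of the 620 peaks (vertical axis) by summit distance upstream of the nearest coding start in bins of 20 bp; right, percentage of regions overlapped in all 3 replicates' lists by distance, from 66.7% within 25 bp to 21.7% at 301 to 500 bp.

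The highest peak of the class was at mtSSB, the gene of a protein that binds single-stranded DNA in mitochondria. Its summit lay 43 bp upstream of the start, with a signal of 1793 in the conservative list and of 341, 800.4 and 622 in the ranked lists of replicates 1, 2 and 3. Each list has its own scale, so values are compared within a list only. The uncharacterised gene CG14441 had 1098 in the conservative list and 221, 442 and 413 in the replicates. CG11857 had 1045, and Oatp30B, an organic anion transporter gene, had 993. Coq7, whose product acts in ubiquinone synthesis, had 896 in the conservative list and 127, 433 and 346 in the replicates. SMC1, a subunit of cohesin, had 827, and Pp2A-29B, the scaffold subunit of the phosphatase PP2A, had 822. Further down came the glycolytic enzyme Eno with 758, the TSC22 family transcription factor bun with 755, the kinase mnb with 742, the ribosomal protein RpS2 with 741 and the endoplasmic reticulum protein jagn with 728. CG8613, CG11964, CG30015, Bka, CG4502, CG17129 and Pcif1 had values between 692 and 939. All 20 of the strongest peaks were overlapped in the lists of all 3 replicates, and their summits lay 5 to 198 bp upstream of the start. In 10 of the 20 windows a copy 1 base away from the DRE was found.

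The 5 weakest peaks of the class were all shoulders of a stronger peak. Their values, at l(1)G0289, CG44303, CG3702, Spn88Ea and CG8066, ran from 2.10 to 5.52. Among peaks that were the strongest of their region, the lowest values were 18.1 at Sik3, 38.5 at Mtp, 44.9 at 14-3-3zeta, 48.2 at Kal1 and 52.3 at ec. Signal in the replicates ran in parallel over the regions: Spearman's rank correlation was 0.841 between replicates 1 and 2 over 537 regions, 0.830 between 1 and 3 over 520, and 0.871 between 2 and 3 over 519. These are values across regions of shared libraries and describe the lists only.

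These upstream summits stood between the DRE promoters and the downstream summits in strength and in replicate overlap. The median signal of their 538 regions was 202 (quartiles 132 and 314), against 264 for the 370 unidirectional DRE promoters with upstream summits, 214 for the 510 divergent promoters without DRE and 129 for the 187 unidirectional regions without DRE whose summit lay downstream. In all 3 replicates' thresholded lists, 276 of the 538 regions (51.3%, Wilson interval 47.1 to 55.5%) were overlapped, where 53.9% of all 2270 regions were. The replicates differed in level, whose lists covered 67.1, 79.6 and 63.2% of the regions (replicates 1, 2 and 3), on average 70.0% ± 8.54 (SD, n = 3). Exactly 2 replicates had 109 of the regions, 1 replicate had 83, and none had 70. The share in all 3 was lower by 15.7 percentage points than in unidirectional DRE promoters, where it was 67.0% (two-sided Fisher's exact test, Benjamini-Hochberg adjusted over 3 classes, p = 7.08e-06). It was higher by 18.7 points than in regions with downstream summits, where it was 32.6% (adjusted exact p = 1.40e-05), although among the peaks at or above the median signal this difference was 3.61 points (adjusted exact p = 0.730). Against divergent promoters without DRE, with 55.5%, the difference of −4.19 points did not pass the test (adjusted exact p = 0.193). Both the list and its thresholds come from these 3 samples, and strength moves with overlap: with the regions in 4 groups of equal size, 97.0, 82.1, 26.1 and 0.0% were in all 3, from the strongest group to the weakest.

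**Figure D2:**
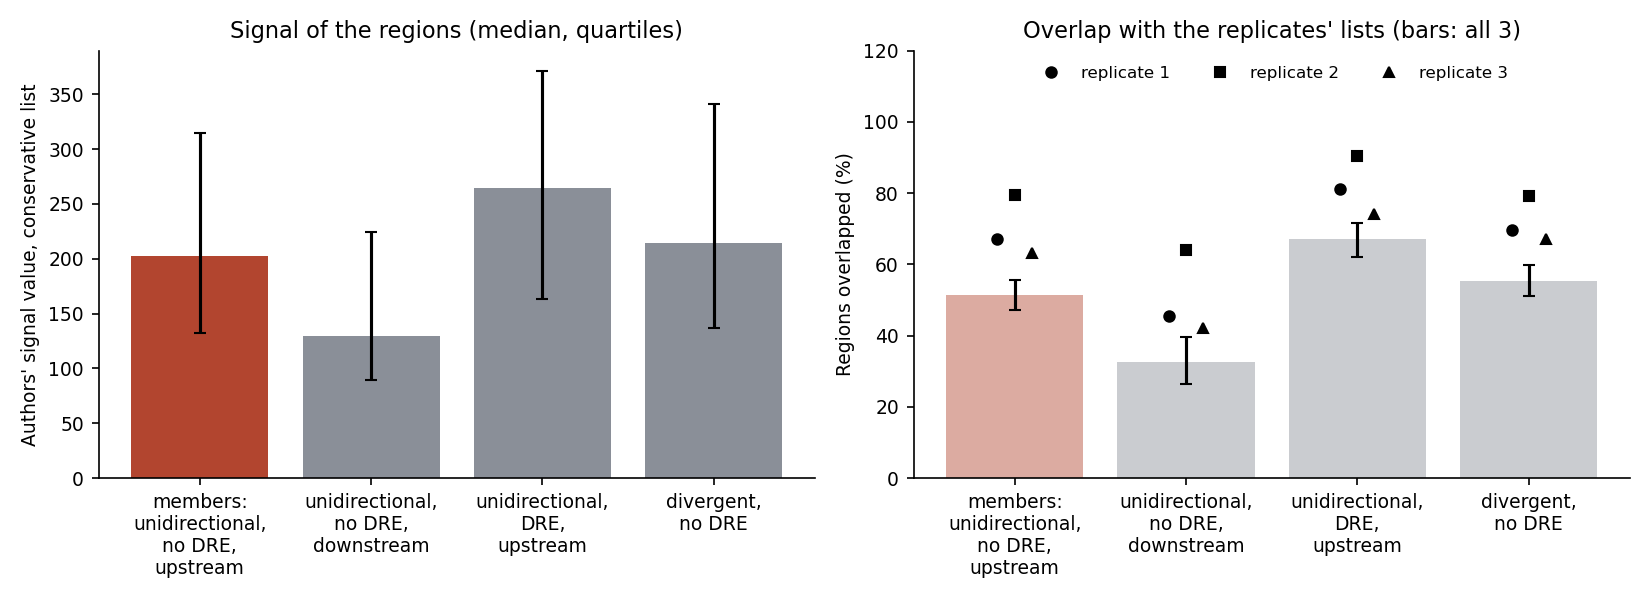
Signal and replicate overlap by promoter class. Left, bars give the median and lines the quartiles of the authors' signal value in the conservative list over regions; right, bars give the percentage of regions overlapped in all 3 replicates with Wilson 95% intervals, and symbols the percentage in each replicate. The regions with upstream summits and no DRE (members, left bar, 51.3% in all 3) lie below unidirectional DRE promoters (67.0%) and above those with downstream summits (32.6%).

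Although the rule removed every exact DRE within 250 bp, most of the summits carried part of it. TATCGAT was within 50 bp of 188 of the 538 summits (34.9%, interval 31.0 to 39.1%), against 5 of the same regions' flanks centred 500 bp further upstream (0.929%). Its nearest copy within 250 bp lay a median of 21.5 bp from the summit, and 81.1% of the 238 regions with such a copy had it within 50 bp, where an even spread over the window would give 20.2%. The shorter core CGATA, which lies inside the DRE and is also read by the insulator protein BEAF-32, was at 351 summits (65.2%), against 67 flanks (12.5%). The rule acts on these letters, so their shares are given as a description with no test.

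The departures from the DRE were at its edge. In 232 regions (43.1%, interval 39.0 to 47.3%) the best copy within 50 bp differed from the DRE at 1 base, against 29 upstream flanks (5.39%) and 15 downstream flanks (2.79%). Such a copy was less common in the related classes, with 154 of 510 divergent promoters without DRE (30.2%) and 38 of 187 regions with downstream summits (20.3%). The differing base was the outermost one in 186 of the 538 windows (34.6%), the second in 40, the third in 34 and one of the central pair in 5. TATCGATT was found in 107 windows, TATCGATG in 95 and TATCGATC in 13, where the upstream flanks held 0, 3 and 1. A central change, as in TATCAATA, was in 4 windows, against 7 flanks. The highest signal beside such a copy was that of mtSSB, and others were CG11857, Oatp30B, CG8613 and SMC1.

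**Figure D3:**
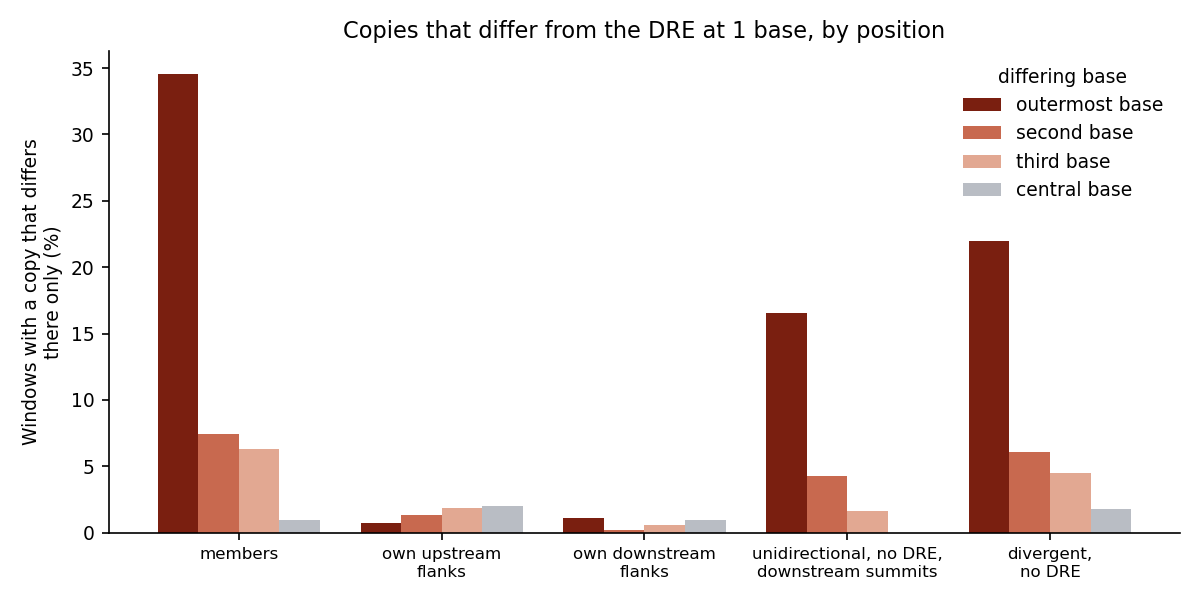
Copies that differ from the DRE at 1 base. Bars give the percentage of windows of 50 bp each side with a copy that differs at the outermost, the second, the third or a central base in either arm of the palindrome. The outermost base leads with 34.6% at the upstream summits without DRE (members) and is at 0.743% in their upstream flanks and 1.12% in their downstream flanks.

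Regions with such a copy had higher signal, again as a description. Their signal had a median of 247, against 165 for the other regions, and the medians in replicates 1, 2 and 3 were 53.0, 111 and 86.6, against 33.6, 76.3 and 57.2. From the strongest to the weakest of the 4 groups, the share with a copy 1 base from the DRE was 53.3, 61.2, 40.3 and 17.8%, and the 157 of 232 found in all 3 replicates made up 67.7%. The median summit beside such a copy was 47.5 bp from the start.

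Against the flanks, Motif 7 stood out among the elements that the rule did not touch, but it was not called against the related classes. The search covered 22 motifs on both strands, and each summit was compared with its own upstream flank by a sign test (exact, two-sided). There, 6 of 22 motifs (27.3%) were more common at the summits and 1 (4.55%) less common after Benjamini-Hochberg adjustment over the 22. By the rule the summits lie near a start, and the flanks lie 500 bp further up, 24.5% of them in coding sequence. This comparison therefore cannot separate elements that go with a start from elements that go with a peak. Motif 7, spelled CATCNCTA, was within 50 bp of 60 summits (11.2%, interval 8.76 to 14.1%), against 1 flank (0.186%, adjusted exact p = 1.18e-15). It was also at 8.38% of unidirectional DRE promoters with upstream summits, 7.84% of divergent promoters without DRE and 7.49% of regions with downstream summits. These differences did not pass Fisher's exact test (two-sided, adjusted exact p = 0.712, 0.204 and 0.682). Among the 60 regions the signal had a median of 242, and of 197 in the others, and 42 of them (70.0%) were in all 3 replicates. The strongest outside the sequences shown above were CG30015 with 829, CG7457 with 494 and Trp1, a gene of the protein translocation machinery, with 488. A copy 1 base from the DRE was in 26 of these 60 windows, where 232 of all 538 (43.1%) held one.

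The other constitutive elements were rarer. The E-box CAGCTG was at 53 summits (9.85%), against 19 flanks (3.53%, adjusted exact p = 0.000643). Motif 1, spelled GGTCACACT, was at 15 summits (2.79%), against 1 flank (adjusted exact p = 0.000895), and Motif 6, spelled GTATNTTT, at 28 (5.20%), against 10 flanks (adjusted exact p = 0.0224). In unidirectional DRE promoters, divergent promoters and downstream summits, the E-box was at 7.30, 5.69 and 12.8%. Motif 1 was there at 4.32, 3.33 and 3.21%, and neither element was called against any of these classes. Among Motif 1 regions, Top1, the topoisomerase gene, had a signal of 473, CG2852 had 325 and CycB, a cyclin gene, had 300.5. Among E-box regions TTLL4A had 607, CG5510 had 605 and Sec61beta, a subunit of the translocon, had 558, and for Motif 6 CG5004 had 607, RtcB 597 and CG17574 499. Against the downstream flank in place of the upstream one, the E-box did not pass (adjusted exact p = 0.309), nor did it pass within 25 bp of the summit, while Motif 7 passed in every alternative. With 1 replicate left out, Motif 7, Motif 1 and the E-box passed each time, and Motif 6 did not, at 3.13 to 3.78 points with adjusted exact p from 0.106 to 0.228. Motif 1 lost its call among the peaks at or above the median signal, at 2.52 points (adjusted exact p = 0.0573), and within 25 bp of the summit, at 0.372 points (adjusted exact p = 0.923), where its alternatives gave 0.372 to 5.02 points in all. At least 1 of Motif 1, Motif 6, Motif 7, the E-box and a copy 1 base from the DRE was at 316 summits (58.7%), and the signal there had a median of 232, and of 154 at the 222 summits with none.

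The T-box core, the sequence for which Doc3's protein family is known, was not called against the flanks. The T-box core GGTGTGA was at 11 summits (2.04%, interval 1.15 to 3.62%), against 7 flanks (1.30%, adjusted exact p = 0.661), and the shorter GGTGTG at 20, against 20. The strongest of the 11 regions were at rut, an adenylyl cyclase gene, Cep135, Nepl3 and Mef2. The signals of the 11 ran from 109 to 413, with a median of 162, and 4 of them were in all 3 replicates. GTGTGA, which the T-box core shares with Motif 1, was at 42 summits, against 22 flanks (adjusted exact p = 0.0375), but with Motif 1 copies masked, a step added after the data were seen, it was at 29, against 21 (unadjusted exact p = 0.312), and unmasked it lost its call without any 1 replicate (adjusted exact p from 0.442 to 0.530). The GATA motif AGATAA was less common at the summits, at 17, against 37 flanks (adjusted exact p = 0.0333), a call lost without any 1 replicate (adjusted exact p from 0.219 to 0.530), and the Tinman motif CAAGTG was at 25, against 40 (adjusted exact p = 0.160). The Zelda motif CAGGTAG was at 3 summits and 3 flanks.

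A search of all 6-base words was led by the same letters. Of all such words, counted together with their reverse complements, 70 (3.37%) were more common at the summits and 48 (2.31%) less common (exact sign test, adjusted over all words). The 70 include 2 words that lie inside the DRE and others that share letters with it, on which the rule acts, so these counts are a description as far as such words go. Of the first 24 in order, 19 held CGAT or ATCG. With no test read from them, the word CGATAG was at 202 summits (37.5%), against 16 flanks, and ACTATC at 123, against 21. CATCTC, a part of Motif 7, was at 54 summits, against 13 flanks (adjusted exact p = 1.58e-05), and GGTCAC, a part of Motif 1, at 40, against 11 (adjusted exact p = 0.000842). GTGTGA did not pass here (adjusted exact p = 0.130), and CACACC, a part of the T-box core read on the other strand, was at 20 summits and 20 flanks. The words most reduced at the summits, such as AATCCT with 4 summits against 31 flanks (adjusted exact p = 0.000240), go with a difference in setting: 24.5% of the upstream flanks lay in coding sequence, where 0.558% of the summits did, and the part of this in the result was not tested. Against the downstream flank, 145 words were more common at the summits and 163 less common, and those flanks had a GC content of 47.8% ± 9.94, against 40.6% ± 9.60 at the summits (SD over 538 windows).

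GAGA runs were more common at the upstream summits than in 2 related classes, and most of them were at weaker peaks. GAGAGAG was within 50 bp of 28 of 538 summits (5.20%), against 10 of their own flanks (1.86%, adjusted exact p = 0.0161). It was at 2 of 370 unidirectional DRE promoters (0.541%, two-sided Fisher's exact test, adjusted exact p = 0.000813) and at 0 of 510 divergent promoters without DRE (adjusted exact p = 1.47e-07). With 3 counts taken as the limit for 0 of 510, the limit is 0.588%, and the observed share at the upstream summits was 8.85-fold this limit. The observed share has its own interval of 3.63 to 7.42%, so 8.85 is not a lower bound of the fold. The median signal of the 28 regions was 137, against 207 for the rest. Only 6 of them were in all 3 replicates, and 9 were in none. From the strongest to the weakest of the 4 groups, 1.48, 2.99, 7.46 and 8.89% held a GAGA run. Without the regions missed by replicates, the difference from the flanks no longer passed: leaving out each replicate in turn and keeping regions found in both others gave differences of 0.917 to 1.37 points, with adjusted exact p from 0.630 to 0.862. Against divergent promoters the same steps gave 2.41 to 2.81 points, and the call was lost without replicate 2 (adjusted exact p = 0.124) and without replicate 3 (adjusted exact p = 0.128). Against unidirectional DRE promoters they gave 2.01 to 2.44 points, with adjusted exact p from 0.446 to 0.807, and the peaks at or above the median signal gave 2.46 points (adjusted exact p = 0.323).

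The genes beside GAGA runs included several developmental regulators. The strongest was mnb, with a signal of 742 in the conservative list and of 135, 370.4 and 224 in the replicates, then Mapmodulin with 521, CG8745 with 284 and Mob2 with 237. Lower on the list, tkv, a receptor for the growth factor Dpp, had 160.3 and was in no replicate's thresholded list. fng, a glycosyltransferase that modifies Notch, had 136 and was in 2 lists. ptc, the Hedgehog receptor, had 119 and was in 1, and kay, the fly Fos, had 102 and was in none. These 4 genes are on the pathway lists described below and were picked out here after their values were seen.

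**Figure D4:**
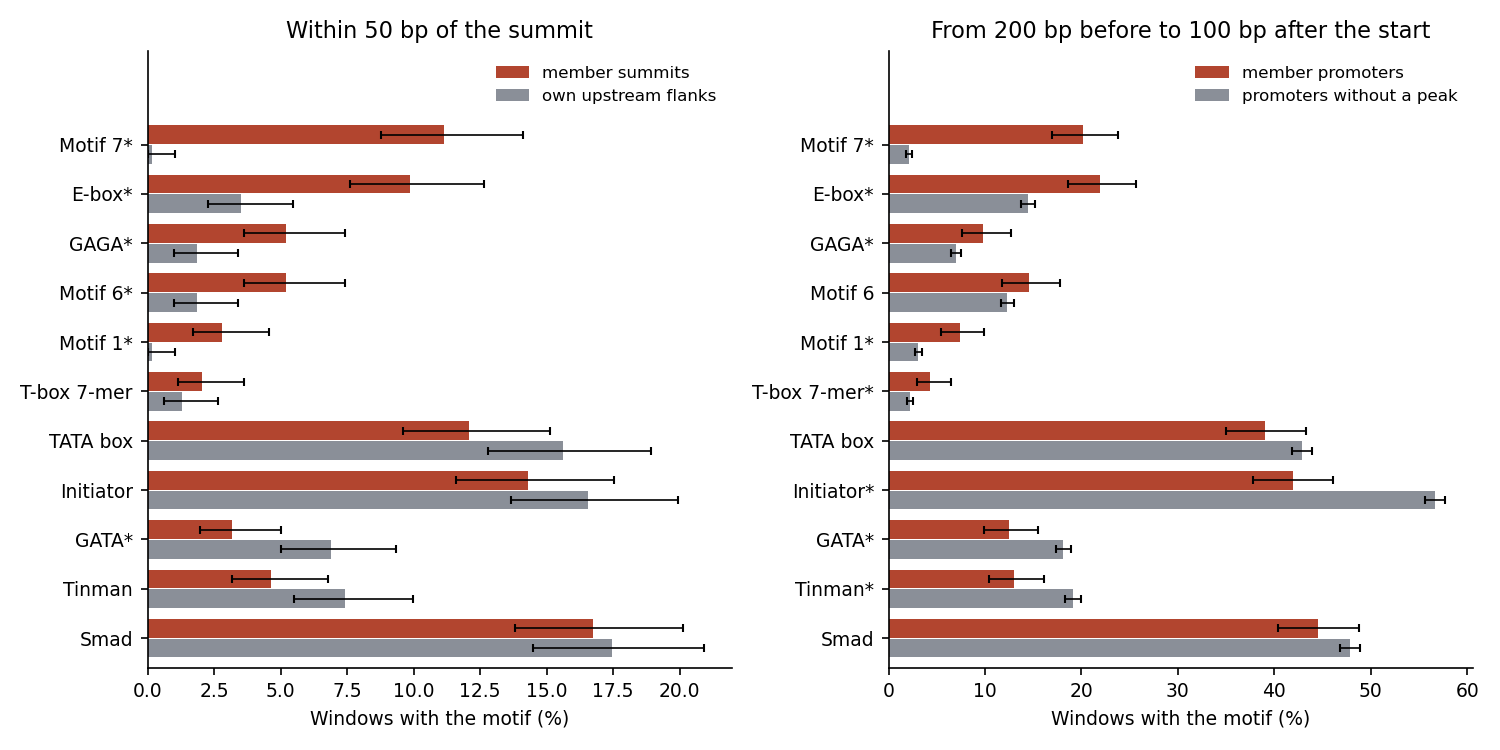
Share of windows with each motif. Left, windows of 50 bp each side of the 538 upstream summits (members, red) and of their own flanks 500 bp upstream (grey); right, 530 promoters of those regions (red) and 8416 unidirectional coding promoters without DRE and without a peak (grey). Lines are Wilson 95% intervals and asterisks mark adjusted p under 0.05; Motif 7 leads on both sides, with 11.2% against 0.186% and 20.2% against 2.07%.

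Beyond GAGA, few motifs passed the test against the related classes. Against unidirectional DRE promoters, GAGA was the 1 motif of 22 that was more common (4.55%), and none was less common (0.0%; 1 motif had an unadjusted p under 0.05). Against divergent promoters without DRE, 3 of 22 motifs (13.6%) were more common and none less common (0.0%; 5 had an unadjusted p under 0.05). Besides GAGA these were the T-box core, at 11 of 538 upstream summits and 1 of 510 divergent ones (adjusted exact p = 0.0460), and the Smad motif GNCGNC or GTCTAGAC, at 16.7% and 9.41% (adjusted exact p = 0.00542). The T-box core lost its call when any 1 replicate was left out, at 1.04 to 1.83 points with adjusted exact p from 0.214 to 0.466. The GC content of the windows was 40.6% at the upstream summits, against 36.1% at the divergent ones. When both classes were limited to windows in the middle range of GC of the divergent class, a choice made after the data were seen, none of the 3 passed: the T-box core was at 3 of 294, against 1 of 280 (adjusted exact p = 0.808), Smad at 10.2%, against 9.29% (adjusted exact p = 0.913), and GAGA at 7, against 0 (adjusted exact p = 0.335). Against the 187 regions with downstream summits no motif was called in either direction by Fisher's test (0.0%), and 2 had an unadjusted p under 0.05, Motif 6 with 5.20%, against 1.07% (unadjusted exact p = 0.0105), and the TATA box with 12.1%, against 6.42% (unadjusted exact p = 0.0378).

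A comparison with promoters that had no peak asked which elements go with recovery of Doc3-eGFP at genes of this layout. The 530 genes whose promoter led a region were set against 8416 coding genes without an opposite coding start or a DRE near the TSS and with no peak within 1000 bp, in the window from 200 bp before to 100 bp after the start. For genes with a peak the start was the coding TSS nearest to the strongest summit. For genes without one it was the gene's most upstream annotated start, so the groups were not measured alike, and the part of this in the results was not tested. Of 22 motifs, 6 (27.3%) were more common and 3 (13.6%) less common at the promoters with a peak (two-sided Fisher's exact test, adjusted over 22). Motif 7 was at 107 of 530 promoters (20.2%, interval 17.0 to 23.8%), against 174 of 8416 (2.07%, adjusted exact p = 2.34e-59). The E-box CAGCTG was at 21.9%, against 14.4% (adjusted exact p = 5.26e-05), and Motif 1 at 7.36%, against 3.09% (adjusted exact p = 1.86e-05). The Initiator TCAGT was at 41.9%, against 56.6% (adjusted exact p = 5.30e-10). Tinman motifs were at 13.0%, against 19.1% (adjusted exact p = 0.00160), and GATA motifs at 12.5%, against 18.1% (adjusted exact p = 0.00245). GATA lost its call without replicate 1 (adjusted exact p = 0.130) and without replicate 2 (adjusted exact p = 0.215). Whether the genes without a peak are active in the embryo was not measured here.

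Elements at promoters with weaker support were the T-box core and GAGA. The T-box core was at 23 of 530 promoters with a peak (4.34%), against 186 of 8416 (2.21%, adjusted exact p = 0.0115), and GTGTGA at 20.9%, against 15.6% (adjusted exact p = 0.00554). Among the peaks at or above the median signal neither passed (adjusted exact p = 0.618 for both), nor did either pass without any 1 of the replicates (T-box core 1.16 to 1.52 points, adjusted exact p from 0.215 to 0.286). GAGA was at 9.81%, against 6.95% (adjusted exact p = 0.0447), a difference of 2.86 points. Its direction turned among the peaks at or above the median signal, to −2.30 points, and in regions kept when each replicate was left out, to between −4.30 and −2.13 points, which passed without replicate 1 (adjusted exact p = 0.0351) and without replicate 2 (adjusted exact p = 0.0109). In these settings the promoters without a peak are those with none in the reduced list, so promoters whose peak was dropped can be among them. With Motif 1 masked, GTGTGA was at 79 of 530 promoters with a peak (14.9%), against 1087 of 8416 (12.9%, unadjusted exact p = 0.184).

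The elements gathered at particular distances from the start, and Motif 7 mostly read along the gene. Copies of TATCGAT within the promoter window had a median position 42 bp before the TSS (quartiles 62 and 23 bp before it), and the fullest 20 bp interval, 40 to 20 bp before the start, held a copy in 14.5% of the 530 promoters. Motif 7 copies had a median position 12 bp before the start, and the interval of 0 to 20 bp after it held them in 6.60% of promoters with a peak. Of the 122 Motif 7 copies at these promoters, 107 read along the gene and 15 against it, while in promoters without a peak 61 of 176 copies read against it. Motif 1 copies read along the gene in 27 of 40 cases, and in 219 of 268 at promoters without a peak. E-box copies gathered at the start, with 5.28% of promoters with a peak in the last 20 bp before it. GAGA copies had a median place 109 bp before the start, and at promoters without a peak 95 bp before it. Overlapping copies in a run were counted separately, with 159 copies at 52 promoters with a peak and 1268 at 585 without. Counted by promoter, the fullest 20 bp interval was 80 to 60 bp before the start for both groups. Copies of the Initiator motif, on either strand, were in the first 20 bp after the start at 10.6% of promoters with a peak and 18.3% of those without. These positions are given as a description, annotated starts carry their own error, and the start was chosen differently for the groups, as given above.

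**Figure D5:**
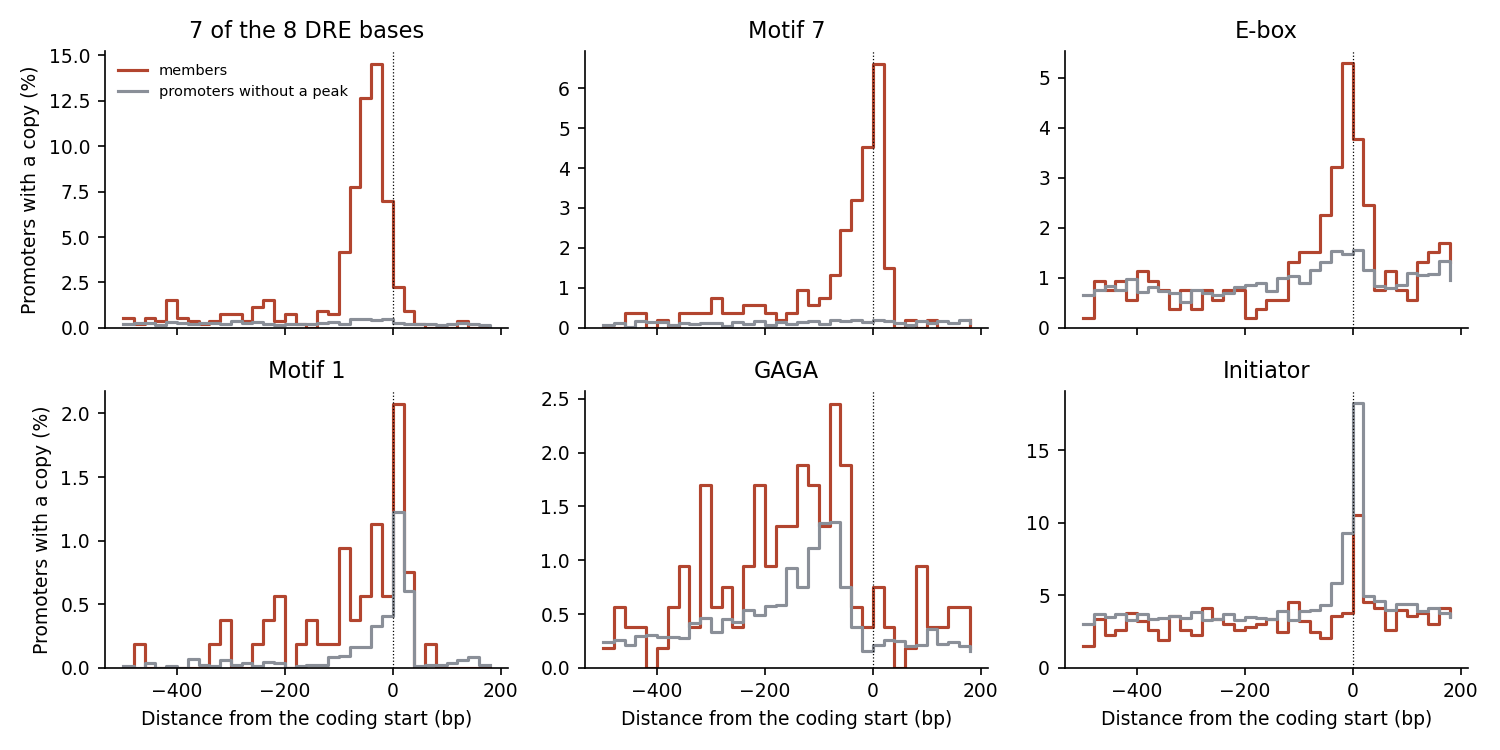
Position of motif copies around the coding start. The horizontal axis is the distance from the start in bp, negative upstream, in bins of 20 bp, and the vertical axis the percentage of promoters with a copy in the bin, for the 530 promoters with a peak (members, red) and 8416 without (grey). TATCGAT (first panel) peaks 40 to 20 bp before the start at 14.5% and Motif 7 just after the start at 6.60%, whereas the Initiator reaches 10.6% at promoters with a peak and 18.3% at those without.

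The promoters also lay closer to a neighbour. Another coding gene ended within 500 bp upstream of the start at 206 of 530 promoters with a peak (38.9%, interval 34.8 to 43.1%), against 2096 of 8416 without one (24.9%, interval 24.0 to 25.8%; two-sided Fisher's exact test, p = 9.18e-12). Among promoters with such an end within 20 kb, the median gap to it was 702 bp, against 1845 bp. The 50 promoters with a peak and 1046 without one that had no such end are not in these medians. Gaps of 101 to 250 bp were found at 17.5% and 10.03%, and gaps of 251 to 500 bp at 19.1% and 10.5%. Gaps of up to 100 bp ran the other way, at 2.26% and 4.37%. The genes with a peak had a median length of 4492 bp, against 2001 bp, and its part in the result was not tested. The start was chosen differently for the groups, as given above, and the part of this was not tested either. When only promoters with such a neighbour were compared, a choice made after the data were seen, Motif 7 was at 24.8%, against 2.24% (adjusted exact p = 1.30e-28), and the E-box at 29.6%, against 16.6% (adjusted exact p = 0.000150), while Motif 1 did not pass (8.74%, against 6.25%, adjusted exact p = 0.440) and neither did Tinman (15.05%, against 18.0%, adjusted exact p = 0.622).

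The genes beside these peaks came from many classes. In 25 lists of genes, drawn up with earlier results of these data known, the share with a peak of this class was above the 4.06% of all coding genes in 14, and no list was tested. Of 92 genes named for cytosolic ribosomal proteins, 9 had such a peak, led by RpS2 with 741, RpL11 with 233, RpL8 with 177 and RpS23 with 172. Of 142 genes on the list for vesicle coats, tethers and SNAREs, 8 had one, led by Sec61beta with 558 and the small GTPase gene Rab11 with 474. Sec61beta is on this list although, as a subunit of the translocon, it is not a coat, tether or SNARE. Respiratory chain and ATP synthase genes had 6 of 92, led by ND-13B with 261, and proteasome genes 3 of 48, which were Rpt1 with 172, Prosbeta7 with 162 and Rpt6 with 127. Chromatin and insulator factors had 4 of 45. These were Utx, a histone demethylase gene, with 285, Pc, a Polycomb group gene, with 265, the insulator gene BEAF-32 with 233 and the acetyltransferase gene nej with 127. Lists with 0 members were the 73 mitochondrial ribosomal proteins, the 35 spliceosome genes, the 12 cullin and adaptor genes, the 42 microtubule genes, the 121 cuticle genes and the 179 odorant and gustatory receptors. The first 4 of these had 17, 16, 5 and 5 genes with a peak of any promoter class, where 15.3% of all coding genes had one.

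Regulators of the heart and of dorsal tissues, where Dorsocross genes are known to act, included some of these genes. Of 31 heart and dorsal mesoderm genes, 3 had a promoter peak of any class, and all 3 were in this one. That is 9.68% of the list, and 15.3% of all coding genes had a conservative peak of any class. For a peak of this class the share over all coding genes was 4.06%. tin, the NK homeobox gene needed for the heart, had a signal of 263 in the conservative list and of 59.1, 128 and 76.5 in replicates 1, 2 and 3, with its summit 221 bp upstream. Mef2, the muscle transcription factor gene, had 202 and 38.8, 107 and 68.4, with its summit 61 bp upstream and both TATCGAT and a T-box core within 50 bp. eve, a homeobox gene of the pericardial cells, had 98.1 and 20.1, 58.3 and 38.2. The thresholded lists of 2, 3 and 1 replicates overlapped tin, Mef2 and eve. Of 28 amnioserosa and dorsal ectoderm genes, 6 had a promoter peak and 3 of these were of this class: zip, non-muscle myosin, with 304, hep, a kinase of the JNK pathway, with 199, and kay with 102.

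Genes of signalling pathways had values from 79.6 to 314. Notch pathway genes had 4 of 16, which were mib1 with 141, fng with 136, E(spl)m3-HLH with 122 and kuz with 79.6. Wingless pathway genes had 2 of 22, pan with 314 and fz, a Wingless receptor gene, with 156. The Dpp list had tkv alone of 22, and the Hedgehog list ptc alone of 14. Over the 7 developmental lists, of 14 to 31 genes each, 14 genes had such a peak, with a median signal of 149 and a range of 79.6 to 314. Of these 14 genes, 4 were found in all 3 replicates, 4 held a copy 1 base from the DRE, 4 a GAGA run and 2 a T-box core. Over 5 lists of constitutive machinery, which are those for cytosolic ribosomal proteins, the proteasome, the respiratory chain, translation factors and vesicles, 28 genes had one, with a median of 157 and a range of 76.1 to 741. These lists hold 48 to 142 genes each, and Sec61beta counts among the 28. The lists differ in size, so 14 and 28 are not shares to set side by side. Of these 28, 12 were in all 3 replicates, 12 held a copy 1 base from the DRE, 0 a GAGA run and 1 a T-box core. Motif 7 was at 1 of the 14 and 6 of the 28. Over all 538 regions, 51.3% were in all 3 replicates and 43.1% held a copy 1 base from the DRE. A GAGA run was at 5.20% of them, a T-box core at 2.04% and Motif 7 at 11.2%. The counts in the lists were not tested against these shares.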

How the data were processed

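Peak lists on dm6 were used as deposited, per the labels. For each of the 3 replicates there was a ranked and a thresholded list, and for the series 4 thresholded lists, of which the one the authors marked conservative was the main list. The authors' signal value of each peak is on a scale that differs between lists, and the summit offset is the authors' too. The aligner and the peak caller were not given in the sources used here. Sequencing depth is unknown, so no interval covers read counts.

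Starts came from Ensembl release 115 (annotation 6.54) and sequence from RefSeq genome release 6. Motif presence was sought on both strands within 50 bp of summits, in flanks centred 500 bp away, and in promoters. Replicate overlap needed 1 bp. A replicate's signal is the highest overlapping value of its ranked list. Python 3.11.15, pandas 2.3.3, scipy 1.17.1 and statsmodels 0.14.6 were used. The sign and Fisher tests, without adjustment, were run on simulated data for Motif 7 alone. The Benjamini-Hochberg adjustment of the results was not part of that check. Wilson intervals (95%) and the limit for a count of 0 (3 counts) cover counting error only. No correction was made for similar sequences at related regions.

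The named genes are those of the 20 strongest and 5 weakest peaks, up to 4 per list or motif, and all where 5 or fewer, with exceptions at the edges of the rule, the weakest regions and the GAGA genes. In all, 1 gene is not reported here. Members, motifs and gene lists were chosen with earlier results of these data known. In 2 lists, name patterns that took in unrelated genes were narrowed after the files were read. Alternatives covered the list, distances, windows, flanks, replicates and signal.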

Additional observations from a re-analysis of the deposited data

How the results depend on the processing

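No paired analysis was possible because the samples form 1 group. Motif 7 at summits against upstream flanks passed in all alternatives, at 3.90 to 19.1 points, and at promoters against those without a peak at 15.2 to 26.6 points. The Initiator, the E-box at promoters and the share with a neighbour passed in all their alternatives too, and the lower replicate overlap against unidirectional DRE promoters kept its call.

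Of 22 motifs, the number higher than in upstream flanks (6) was 2 among peaks above the median signal, 1 with 25 bp each side and 3 with any 1 replicate left out. The number lower (1, GATA) was 0 with midpoints as summits, with starts within 250 or 1000 bp, above the median signal, in the second of the other lists by length, with 25 bp each side, and 0 with any 1 replicate left out. The midpoint setting changes nothing for a peak whose summit is already the middle. Against unidirectional DRE promoters the number higher (1) was 0 above the median signal, in the first and second other lists, with 25 bp and 0 with any 1 replicate left out. Against divergent promoters the number higher (3) was 1 with 25 bp, 0 in the middle range of GC and 0 to 2 with 1 replicate left out, and the number lower (0) was 1 with starts within 250 bp, with the DRE within 100 bp and in the first and second other lists. Against downstream summits the number higher (0) was 3 in the third other list and 2 with 100 bp each side, where the number lower (0) was 1. At promoters the number higher (6) was 3 above the median signal and in the first and second other lists, 2 among promoters with a near neighbour and 3 with any 1 replicate left out. With any 1 replicate left out, these 3 were Motif 7, Motif 1 and the E-box.

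Of all 6-base words, the number higher (70) was 35 with 25 bp and 145 against the downstream flank. The number lower (48) was 31 with starts within 1000 bp, 23 above the median signal, 8 with 25 bp, 105 with 100 bp, 163 against the downstream flank and 20 to 27 with 1 replicate left out. The replicate overlap against divergent promoters was called with all peaks counted (−6.06 points, adjusted exact p = 0.0328) and in the third other list (−6.58 points, adjusted exact p = 0.0207), and that against downstream summits was not called above the median signal (3.61 points). GAGA at promoters turned to −2.30 points above the median signal, −1.66 in the first other list, −0.570 among promoters with a near neighbour and −4.30 to −2.13 with 1 replicate left out. The peaks above the median, the shorter lists and the fits without a replicate hold fewer regions, and 25 bp windows fewer bases. With fewer peaks, the promoters without a peak can include some whose peak was dropped. Otherwise the cause was not tested. Leaving out a replicate keeps only regions found in both others.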
